A study of Mus musculus with 18 samples.

Results

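The aldo-keto reductases described here were 8 genes, chosen by symbol: *Akr1c14*, *Akr1c12*, *Akr1c13*, *Akr1c19*, *Akr1b7*, *Akr1b8*, *Akr1b3* and *Akr1a1*. All 8 were listed in each of the 3 tables, which hold 17759 genes for crypts, 17423 for day 1 and 17612 for day 3. All 8 passed the minimum mean normalized count of 10 at each time point, *Akr1c14* in crypts and at day 1 only through WT. The set was put together with results of these data known, and *Akr1c14* was singled out for its level in crypts of *Mtgr1*-/- mice, so crypt values are given as a description and only the enteroid values were tested. RNA was sequenced from duodenal crypts of 3 WT (*Mtgr1*+/+) and 3 *Mtgr1*-/- mice, and from enteroids grown from the same mice and collected after 1 or 3 days, which gave 18 libraries. The mice were male and female age-matched littermates of 8 to 12 weeks, without a sex given per library, and the *Mtgr1*-/- mice carried the deletion in all tissues. The crypt samples were therefore the starting material of the enteroid samples, and values of a mouse at the 3 time points are not independent.

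Aldo-keto reductases fold into a barrel that holds NADPH or NADH and use it to reduce aldehydes and ketones to alcohols, or run the reaction backwards. The AKR1C branch acts on steroids, prostaglandins and foreign carbonyl compounds. The AKR1B branch holds aldose reductase, the first enzyme of the polyol pathway, and its relatives that clear reactive aldehydes, and AKR1A1 is the general aldehyde reductase. In the intestine these enzymes lie mostly in the epithelium, where food, bile and lipid peroxidation supply carbonyl compounds.

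The 8 genes lie at 3 places in the mouse genome (GENCODE M21, GRCm38). *Akr1c14* (chr13:4049011-4090688, plus strand), *Akr1c13* (chr13:4191150-4205596, plus strand), *Akr1c19* (chr13:4228700-4252843, plus strand) and *Akr1c12* (chr13:4268176-4279433, minus strand) form one cluster, in which *Akr1c18* separates *Akr1c14* from the other 3. *Akr1b3* (chr6:34302434-34317478, minus strand), *Akr1b8* (chr6:34354119-34368463, plus strand) and *Akr1b7* (chr6:34412334-34423142, plus strand) form another, with *Akr1b10* between the latter pair. *Akr1a1* (chr4:116636510-116651680, minus strand) stands alone. All 8 are annotated as protein-coding, with 316 codons in each of the 3 *Akr1b* genes, 323 in each of the 4 *Akr1c* genes and 325 in *Akr1a1*.

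The coding sequences of *Akr1c12* and *Akr1c13* were 96.2% identical, and those of *Akr1b7* and *Akr1b8* 84.8%. *Akr1c14* was the most distant of the cluster, at 73.0% to 73.8% identity with the other 3 *Akr1c* genes. Of the 50-base words in the transcripts of *Akr1c12*, 28.6% also occurred in *Akr1c13*, and 24.2% of those of *Akr1c13* in *Akr1c12*, so 50-base reads could be split between this pair and their values are less certain as single genes. For *Akr1c14* the share was 5.80%, all of it with *Gm18857*, and for *Akr1b3* 9.48%. For the other members it was between 0.683% and 4.14%.

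**Figure D1:**
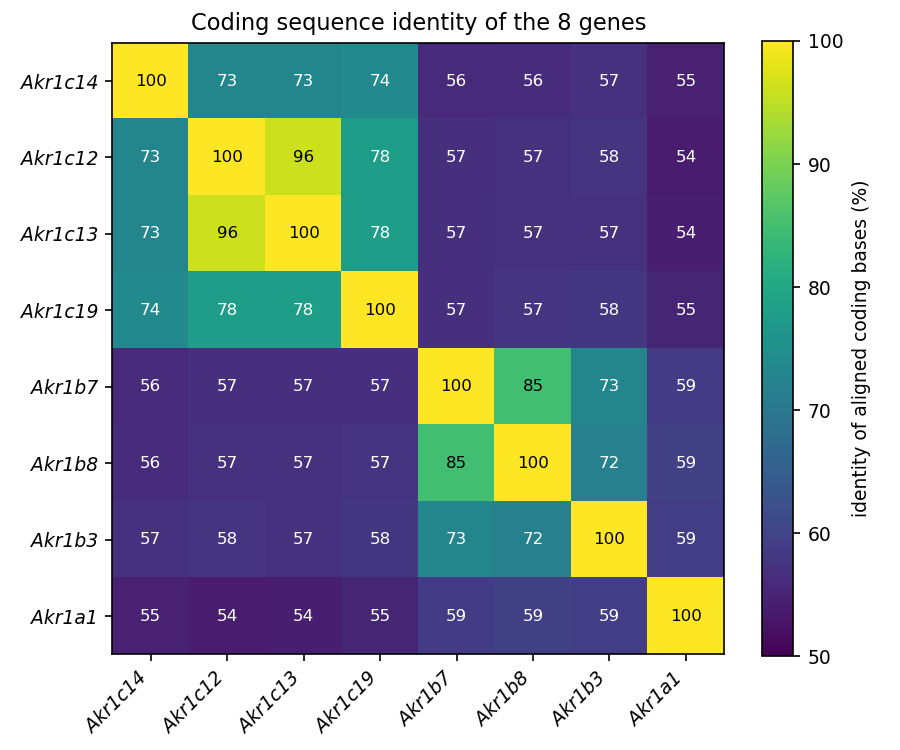
Percent of identical bases over the alignment of the coding sequences, with gaps counted as differences, for each pair of the 8 genes (colour scale from 50% to 100%, row and column order by cluster). *Akr1c12* with *Akr1c13* (96.2%) and *Akr1b7* with *Akr1b8* (84.8%) are the closest pairs, and *Akr1c14* is at 73.0% to 73.8% with the rest of its cluster.

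The promoters of the 4 *Akr1c* genes are shown because these neighbours moved in opposite directions. RefSeq promoters (GRCm38.p6, 250 bases before to 50 after the gene's start) were given for 7 of the 8 genes. The lines give the strand of the gene from 5′ to 3′: chr13:4059341-4059640 (plus) for *Akr1c14*, chr13:4190937-4191236 (plus) for *Akr1c13*, chr13:4233490-4233789 (plus) for *Akr1c19* and chr13:4279350-4279649 (minus) for *Akr1c12*. Capitals mark each E-box, CANNTG. The window of *Akr1c13* holds none and has no capitals. The RefSeq starts of *Akr1c14* and *Akr1c19* lie inside their longer GENCODE genes.
Akr1c14: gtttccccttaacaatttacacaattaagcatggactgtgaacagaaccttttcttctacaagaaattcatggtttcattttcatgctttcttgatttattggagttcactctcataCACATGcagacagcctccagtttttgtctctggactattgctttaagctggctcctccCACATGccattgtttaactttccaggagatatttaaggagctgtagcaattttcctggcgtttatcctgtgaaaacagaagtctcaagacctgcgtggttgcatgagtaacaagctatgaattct
Akr1c13: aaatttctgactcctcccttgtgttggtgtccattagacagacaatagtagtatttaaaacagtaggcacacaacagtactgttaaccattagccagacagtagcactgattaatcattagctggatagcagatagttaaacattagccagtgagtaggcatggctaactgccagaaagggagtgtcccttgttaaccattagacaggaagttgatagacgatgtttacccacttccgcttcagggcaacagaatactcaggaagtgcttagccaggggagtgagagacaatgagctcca
Akr1c19: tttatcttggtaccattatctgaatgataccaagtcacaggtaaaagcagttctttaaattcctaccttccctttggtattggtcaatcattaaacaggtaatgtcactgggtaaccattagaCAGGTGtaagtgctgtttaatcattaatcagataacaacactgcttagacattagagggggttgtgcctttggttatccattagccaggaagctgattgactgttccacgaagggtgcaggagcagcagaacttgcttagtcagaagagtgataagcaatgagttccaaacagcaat
Akr1c12: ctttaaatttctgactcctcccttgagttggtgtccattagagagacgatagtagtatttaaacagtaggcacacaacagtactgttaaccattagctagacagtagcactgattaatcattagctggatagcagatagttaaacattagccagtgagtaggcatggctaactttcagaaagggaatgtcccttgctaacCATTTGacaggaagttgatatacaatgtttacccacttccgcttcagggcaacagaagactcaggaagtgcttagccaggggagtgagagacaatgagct

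In these windows *Akr1c14* held 2 E-boxes, both with the letters CACATG, *Akr1c19* and *Akr1c12* held 1 each and *Akr1c13* none. An E-box was found in 72.3% of 32851 promoters of the same length. The antioxidant response element core TGACNNNGC, letters to which NRF2 can bind, was found in 12.4% of all promoters and, among the 7 windows, in that of *Akr1c19*, on the opposite strand (GCTTAGTCA on the strand shown). The AP-1 letters TGANTCA, found in 7.81% of all promoters, were in none of the 7. On both strands, *Akr1b7* and *Akr1b8* each held 1 E-box and *Akr1a1* held none of the 3 motifs. When the windows were aligned without a penalty for unaligned ends, those of *Akr1c13* and *Akr1c12* were identical at 284 of 296 aligned bases (95.9%), and that of *Akr1c19* aligned with *Akr1c13* over 229 bases at 78.2% identity. The window of *Akr1c14* aligned with these 3 over 11 to 16 bases and with that of *Akr1a1* over 42. An alignment of whole windows can miss a short shared stretch inside them, so whether *Akr1c14* shares one with its cluster was not tested. The start of its longer GENCODE gene was not examined, and a link of these sequences to expression was not tested.

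In the 16 libraries whose reads could be recovered, 22035316 to 28621990 reads lay on genes. *Mtgr1* itself, listed as *Cbfa2t2*, was not lower in the libraries labelled *Mtgr1*-/-, at a mean normalized count of 577 ± 48.3 in WT and 566 ± 119 in *Mtgr1*-/- crypts (SD, n = 3 each), 752 ± 39.3 and 986 ± 187 at day 1, and 842 ± 59.4 and 878 ± 106 at day 3. RNA of the gene therefore did not check the genotype labels, and the libraries are named here as labelled. The epithelial markers *Epcam*, *Cdh1*, *Vil1*, *Krt8*, *Krt20* and *Cdx2* summed to between 107830 and 323084 in every library, whereas fibroblast and smooth muscle markers summed to at most 61.0 normalized counts. WT crypt library 3 stood apart, with a summed leukocyte marker count (*Ptprc*, *Cd3e*, *Cd79a*, *Cd68*, *Csf1r*) of 5848 against 598 and 567 in the other WT crypts, and *Mtgr1*-/- crypt library 2 had a Paneth marker sum of 25527 against 1358 and 1047 in the others.

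Summed cell type markers differed between the genotypes. A sum can be set by its most abundant gene, and single markers were not compared. A low stem cell sum therefore does not show that each stem cell marker was low. The summed enterocyte markers (*Alpi*, *Fabp1*, *Apoa1*, *Apoa4*, *Lct*; 5 of 5 in the tables) lay between 97648 and 132687 in WT and 290658 and 487094 in *Mtgr1*-/- enteroids at day 1, and between 68138 and 72795 and 236056 and 418595 at day 3. The stem cell markers (*Lgr5*, *Olfm4*, *Ascl2*, *Smoc2*; 4 of 4) lay between 22138 and 48196 in WT and 513 and 732 in *Mtgr1*-/- enteroids at day 1. Goblet markers (3 of 4 in the tables) were at 46543 to 58643 against 1759.7 to 3370.2 at day 1, Paneth markers at 37860 to 49161 against 675 to 3378, and enteroendocrine markers at 6148 to 8574 against 53.6 to 131. In crypts, goblet markers were at 107953 to 129826 in WT and 3565 to 5662 in *Mtgr1*-/-, stem cell markers at 27859 to 35562 against 1575 to 3175, and enteroendocrine markers at 6115 to 10579 against 163 to 292, whereas enterocyte markers overlapped. Paneth markers in crypts were at 80048 to 90261 in WT and 1047 to 25527 in *Mtgr1*-/-. Goblet, Paneth, stem cell and enteroendocrine sums were thus lower in the libraries in which *Akr1c14* was low. Within *Mtgr1*-/- crypts the Paneth sums did not follow *Akr1c14*, as library 2 had the highest sum (25527) and the lowest *Akr1c14* value (1.90). Tuft markers (*Dclk1*, *Trpm5*, *Pou2f3*) went the other way in crypts, at 824 to 1050 in WT and 1213 to 3872 in *Mtgr1*-/-. They overlapped at day 1 and were lower in *Mtgr1*-/- at day 3, at 168 to 193 against 342 to 383 in WT. The part of these shifts in the values below was not tested, and in bulk RNA fewer cells of a type and less RNA per cell cannot be told apart.

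**Figure D2:**
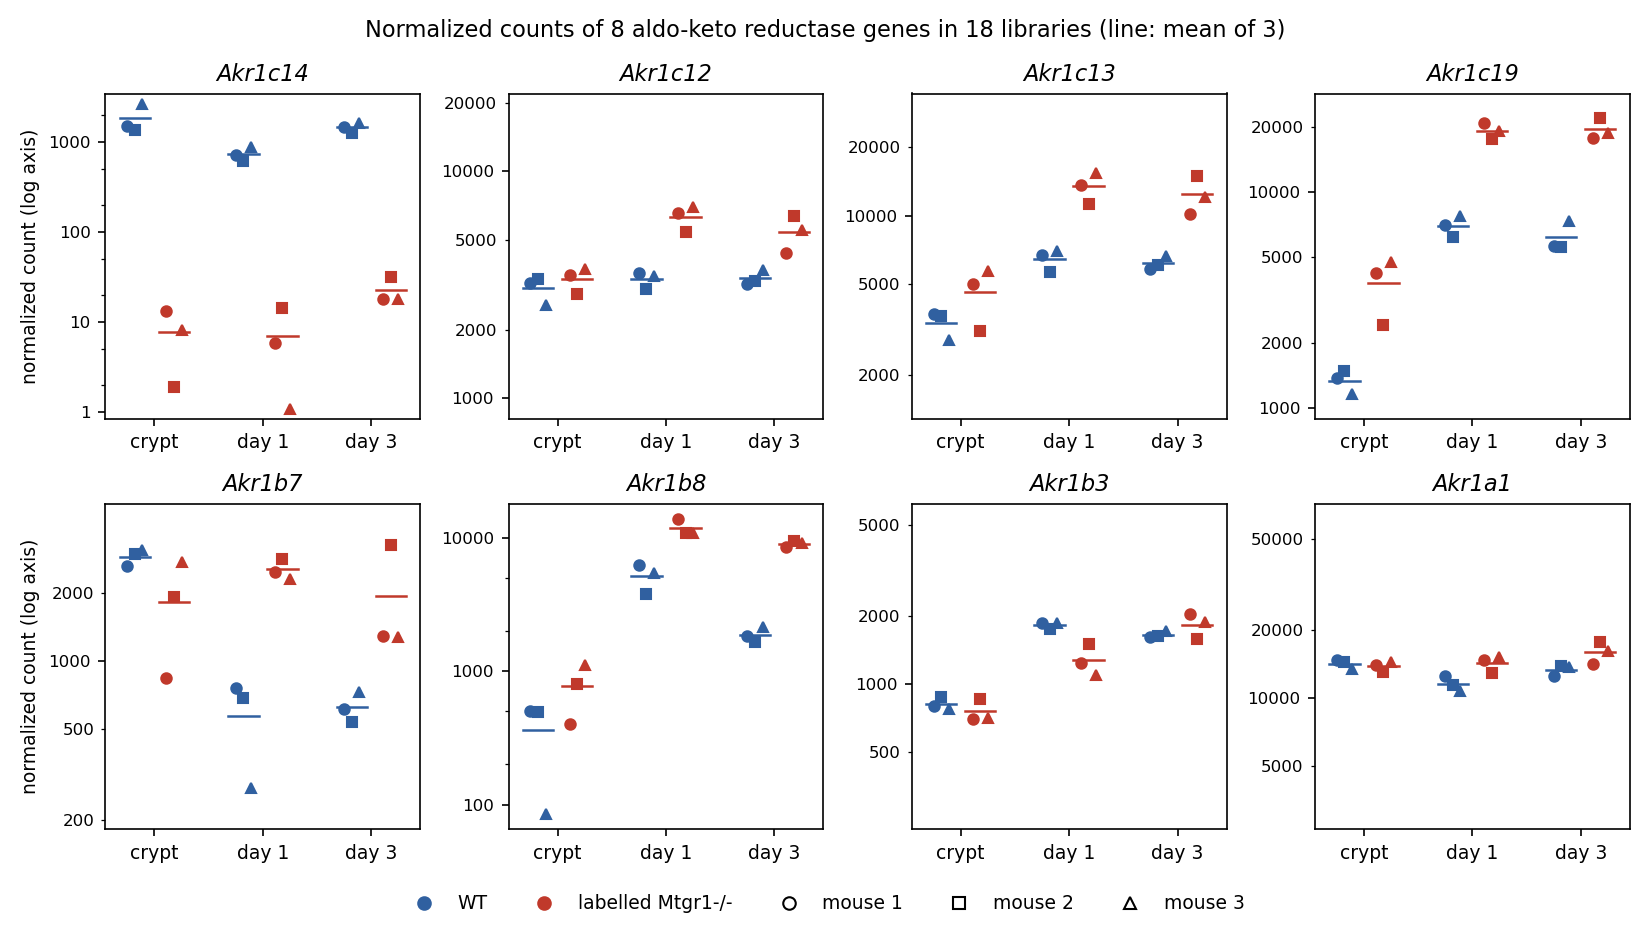
Normalized counts (log axis) of the 8 genes in crypts and in enteroids at day 1 and day 3, with WT libraries in blue and libraries labelled *Mtgr1*-/- in red. Each point is 1 library, its shape gives the mouse, and lines give the mean of 3. *Akr1c14* is far lower in every *Mtgr1*-/- library, and *Akr1c13*, *Akr1c19*, *Akr1b7* and *Akr1b8* are higher in every *Mtgr1*-/- enteroid library than in any WT library of the same day.

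*Akr1c14*, the 3α-hydroxysteroid dehydrogenase that acts on dihydrotestosterone and related steroids, was close to undetected in *Mtgr1*-/- libraries at all 3 time points. Its crypt values were normalized counts of 1495, 1342 and 2637 in WT and 13.2, 1.90 and 8.13 in *Mtgr1*-/- mice, for mice 1, 2 and 3. These 3 *Mtgr1*-/- values rest on 24 reads in all, and their mean of 7.74 ± 5.65 stands against 1825 ± 708 in WT (SD, n = 3), a ratio of WT to *Mtgr1*-/- of 236. The highest WT value was in library 3, the one with the leukocyte markers, and the log2 fold change of -7.92 (SE 0.588) was -7.62 without it. It ranged from -8.40 without *Mtgr1*-/- library 1 to -7.26 without *Mtgr1*-/- library 2, the one with 2 reads. The gene was chosen for this difference, so no test is given.

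In enteroids, which were grown from crypts of the same mice, *Akr1c14* was also low in each *Mtgr1*-/- library. These values are not an independent check, as the set was chosen with results of these data known. At day 1 the values were 722, 606 and 880.0 in WT and 5.83, 14.2 and 1.10 in *Mtgr1*-/-, and at day 3 1467, 1256 and 1599 in WT and 18.2, 31.8 and 17.97 in *Mtgr1*-/-. The groups lay far apart on both days, with WT above *Mtgr1*-/- by a ratio of means of 104 at day 1 and 63.6 at day 3. The log2 fold change was -6.92 at day 1 (SE 0.632) and -5.97 at day 3 (SE 0.229, adjusted p = 4.36e-06, limma). At day 1 the gene passed the minimum mean only through WT, so that value is given without a test. As the day 1 *Mtgr1*-/- values rest on 21 reads, the fitted day 1 size depends on the pseudocount and the library set. It ranged from -7.59 to -5.71 over 17 alternatives.

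The other *Akr1c* members went the opposite way. *Akr1c19*, a hydroxysteroid and xenobiotic dehydrogenase that prefers NAD, had 7072, 6191 and 7718 normalized counts in WT and 20858, 17549 and 19162 in *Mtgr1*-/- enteroids at day 1, and at day 3 5609.8, 5548 and 7388 against 17789, 21978 and 18746. Every *Mtgr1*-/- library lay above every WT library of its day. *Akr1c19* was thus higher by a log2 fold change of 1.46 at day 1 (SE 0.115, adjusted p = 0.000113, limma) and 1.66 at day 3 (SE 0.135, adjusted p = 4.91e-05, limma). In crypts *Akr1c19* was the single member whose *Mtgr1*-/- values (4213, 2434 and 4759.8) all lay above those of WT (1380.0, 1496 and 1163), a description with a log2 fold change of 1.45 (SE 0.250).

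*Akr1c13* and *Akr1c12*, a near-identical pair of dehydrogenases of hydroxysteroids and cyclic alcohols, also rose in enteroids. *Akr1c13* was at 6728, 5658 and 7024 in WT and 13668, 11221 and 15495 in *Mtgr1*-/- at day 1, and at 5823, 6079.6 and 6642 against 10221, 15026 and 12093 at day 3. *Akr1c12* was at 3571, 3028 and 3446 against 6562, 5422 and 6952 at day 1, and at 3197, 3292 and 3659 against 4378, 6324 and 5497 at day 3. Groups did not overlap for either gene on either day. *Akr1c13* had log2 fold changes of 1.05 (SE 0.141, adjusted p = 0.000735, limma) at day 1 and 0.99 (SE 0.138, adjusted p = 0.00064, limma) at day 3, and the day 1 value was 0.69 under quantile normalization, with the call kept. *Akr1c12* had log2 fold changes of 0.91 (SE 0.117, adjusted p = 0.000621, limma) and 0.66 (SE 0.133, adjusted p = 0.00353, limma). With the counts of both genes summed, so that reads shared by them cannot matter, the rise was 1.00 (log2) at day 1 and 0.88 at day 3.

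In crypts both members of this pair overlapped between genotypes. *Akr1c13* was at 3678, 3631 and 2844 in WT and 4998, 3109 and 5706 in *Mtgr1*-/- crypts, and *Akr1c12* at 3235, 3368 and 2572 against 3496, 2876 and 3728. *Mtgr1*-/- crypt library 2, which held the Paneth markers, was the lowest of its group for *Akr1c12*, *Akr1c13* and *Akr1c19*.

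*Akr1b8*, a reductase of retinaldehyde and of reactive aliphatic aldehydes, had the largest rise of the 8 genes at day 3. Its normalized counts were 6261, 3799 and 5387 in WT and 13768, 10850.1 and 10864 in *Mtgr1*-/- enteroids at day 1, and 1841, 1649 and 2137 against 8545, 9358 and 9058 at day 3. Groups did not overlap on either day. This gave log2 fold changes of 1.22 at day 1 (SE 0.189, adjusted p = 0.00128, limma) and 2.27 at day 3 (SE 0.104, adjusted p = 6.50e-06, limma). In crypts the values were 502, 494 and 85.2 in WT and 401, 802 and 1109 in *Mtgr1*-/-. The groups overlapped there, and the low WT value was that of library 3, without which the log2 fold change fell from 1.35 to 0.51.

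*Akr1b7*, an aldose reductase-like enzyme that clears aldehydes made in steroid synthesis and lipid peroxidation, had a lower mean in *Mtgr1*-/- crypts and a higher one in *Mtgr1*-/- enteroids. In crypts it was at 2612, 2961 and 3070.0 in WT and 841, 1911 and 2722 in *Mtgr1*-/-, with overlap and a log2 fold change of -0.81 (SE 0.391). *Mtgr1*-/- library 1 decided much of this, and without it the log2 fold change was -0.33. At day 1 *Akr1b7* was at 764, 686 and 277 in WT and 2477, 2809.7 and 2299.6 in *Mtgr1*-/-, a log2 fold change of 2.26 (SE 0.346, adjusted p = 0.00123, limma), the largest rise of the 8 genes on that day. At day 3 it was at 615, 539 and 729.9 against 1295, 3231 and 1279, for which the log2 fold change was 1.49 (SE 0.331, adjusted p = 0.0056, limma). Enteroid groups did not overlap, and *Mtgr1*-/- library 2 was the highest at day 3 of the 3. Without that library the day 3 log2 fold change was 1.05 (adjusted p = 0.000314, limma).

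*Akr1b3*, aldose reductase, which turns glucose into sorbitol, was lower in *Mtgr1*-/- enteroids at day 1 and not called at day 3. At day 1 its values were 1863, 1747 and 1859 in WT and 1242, 1494 and 1099 in *Mtgr1*-/-, without overlap and with a log2 fold change of -0.52 (SE 0.119, adjusted p = 0.00681, limma). The day 3 values, 1615, 1626 and 1708 against 2025, 1571 and 1865, overlapped, with a log2 fold change of 0.13 (SE 0.103, adjusted p = 0.286, limma). Without *Mtgr1*-/- library 2, the lowest of its group, the day 3 log2 fold change was 0.24 (adjusted p = 0.0249, limma). In crypts the values were 797, 874 and 777 in WT and 704, 859.9 and 708 in *Mtgr1*-/-.

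*Akr1a1*, aldehyde reductase, which reduces glucuronate on the path to ascorbate in mice, differed little between the groups, and its direction depended on the scaling. It was at 12499, 11379 and 10732 in WT and 14739, 12843 and 15205 in *Mtgr1*-/- at day 1, which did not overlap, with a log2 fold change of 0.31 (SE 0.107, adjusted p = 0.0388, limma) that turned to -0.09 (adjusted p = 0.335, limma) under quantile normalization. The day 1 call was also lost without either of WT libraries 2 and 3 or *Mtgr1*-/- libraries 1 and 3 (log2 fold changes 0.25 to 0.30, adjusted p between 0.101 and 0.142, limma). At day 3 it was at 12498, 13823 and 13699 against 14090.2, 17688 and 16090.1, for which the log2 fold change was 0.25 (SE 0.106, adjusted p = 0.0689, limma) and -0.01 under quantile normalization. In crypts the values were 14654, 14370.3 and 13445 in WT and 14003, 13039.7 and 14485 in *Mtgr1*-/-.

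In all, 6 of the 8 genes were higher and 2 lower in *Mtgr1*-/- enteroids at day 1 (limma), where 30.0% and 28.9% of the 12587 genes tested were higher and lower, the call of *Akr1a1* being the one that quantile normalization turned. *Akr1c14*, counted among the 2 lower genes, passed the minimum mean at day 1 only through WT. At day 3, 5 were higher and 1 lower, where 29.9% and 29.1% of 12782 genes were. The median log2 fold change of the 8 genes was 0.98 at day 1 and 0.83 at day 3, and that of all genes tested was -0.01 and 0.0026. Groups did not overlap for all 8 members at day 1, where this held for 68.1% of genes, and for 7 of 8 at day 3, where it held for 68.8%. In crypts, 2 members (*Akr1c14* and *Akr1c19*) did not overlap, where 25.5% of 12980 genes did not, and nothing is read from this count because crypt values chose the set. Without *Mtgr1*-/- crypt library 2, 5 of the 8 genes did not overlap, and 3 did not without WT library 1 or *Mtgr1*-/- library 1 or 3.

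**Figure D3:**
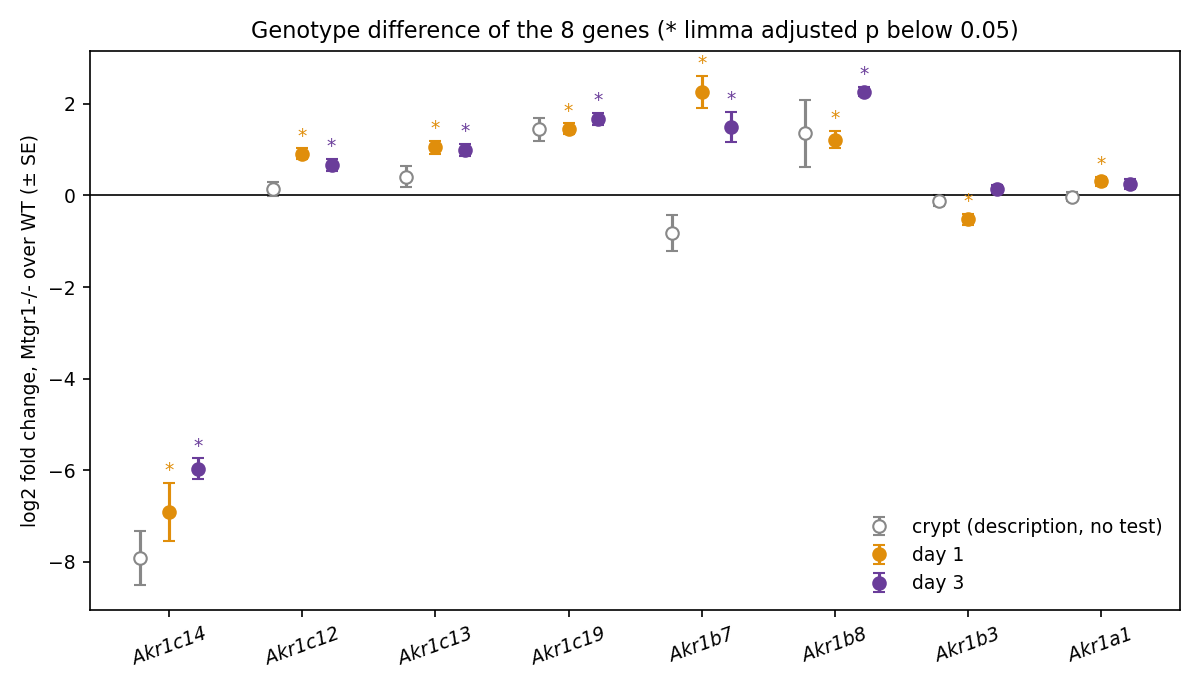
Log2 fold change of *Mtgr1*-/- over WT (± SE) for each of the 8 genes in crypts (open, no test), at day 1 (orange) and at day 3 (purple), with asterisks where limma's adjusted p was below 0.05. At day 1 *Akr1c14* passed the minimum mean only through WT, so its asterisk there is not read. *Akr1c14* lies between -7.92 and -5.97, *Akr1b7* is below 0 in crypts and above it in enteroids, and *Akr1b3* and *Akr1a1* stay within 0.6 of 0.

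Whether the genotype difference changed between day 1 and day 3 was tested with limma in the 12 enteroid libraries. None of the 8 genes passed, with 2 at an unadjusted p below 0.05, and 0.491% of the 12432 genes tested were called. The lowest p-values were those of *Akr1b8*, whose log2 fold change was 1.05 larger at day 3 (SE 0.242, unadjusted p = 0.000997, adjusted p = 0.0937, limma), and of *Akr1b3*, at 0.66 (SE 0.165, unadjusted p = 0.00183, adjusted p = 0.124, limma). *Akr1b8* passed when each mouse was a block (adjusted p = 0.0426, limma) and without WT library 2 at day 1 (adjusted p = 0.0133, limma). Both genes passed without *Mtgr1*-/- library 2 at day 1 (adjusted p of 0.0151 for *Akr1b8* and 0.00313 for *Akr1b3*, limma) or at day 3 (0.0187 and 0.00573, limma). In the other 15 alternatives *Akr1b8* did not pass, with an adjusted p of 0.778 when all 18 libraries shared the fit (limma). For *Akr1c14*, which passed the day 1 minimum mean only through WT, the change was 0.95 with an SE of 0.782. It is given without a test, and nothing is read from it.

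Levels over culture are described after all 18 libraries were rescaled together, because each time point had been normalized on its own, and they were not tested. *Akr1b8* rose from crypts to day 1 in all 6 mice, from 393 ± 259 to 5037 ± 1168 in WT and from 836 ± 388 to 11514 ± 1604.5 in *Mtgr1*-/- (SD, n = 3). By day 3 it was down to 1751 ± 217 in WT and 8401 ± 364 in *Mtgr1*-/-, lower than at day 1 in all 6. *Akr1c19* also rose in all 6 mice, from 1477 ± 171 to 6851 ± 719 at day 1 in WT and from 4129 ± 1350.2 to 18684 ± 1571 in *Mtgr1*-/-, and was at 5769.8 ± 928 and 18229 ± 1987 at day 3. *Akr1c13* rose from crypts to day 1 in all 6 mice as well, on average by 0.77 (log2) in WT and 1.43 in *Mtgr1*-/-.

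*Akr1b7* fell from crypts to day 1 in 3 of 3 WT mice, from 3165 ± 297 to 564 ± 254, and was at 586 ± 85.7 at day 3. In *Mtgr1*-/- mice it was at 1978 ± 1030.0 in crypts, 2462 ± 253 at day 1 and 1806 ± 1041 at day 3, higher at day 1 than in crypts in 2 of 3 mice. *Akr1c14* fell in 3 of 3 WT mice from 2010.1 ± 808 to 721 ± 133 at day 1 and was higher again in 3 of 3 at day 3, at 1345 ± 154. *Akr1b3* rose in 3 of 3 WT mice from 896 ± 51.2 in crypts to 1786 ± 48.4 at day 1 and then fell in 3 of 3 mice to 1541 ± 35.2. In *Mtgr1*-/- mice it went from 820.2 ± 88.5 over 1245 ± 196 to 1702 ± 220.4 and was higher at day 3 than at day 1 in 3 of 3, in mouse 2 by less than 0.01 (log2). *Akr1a1* was lower at day 1 than in crypts in all 6 mice, by 0.46 (log2) on average in WT and 0.11 in *Mtgr1*-/-.

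**Figure D4:**
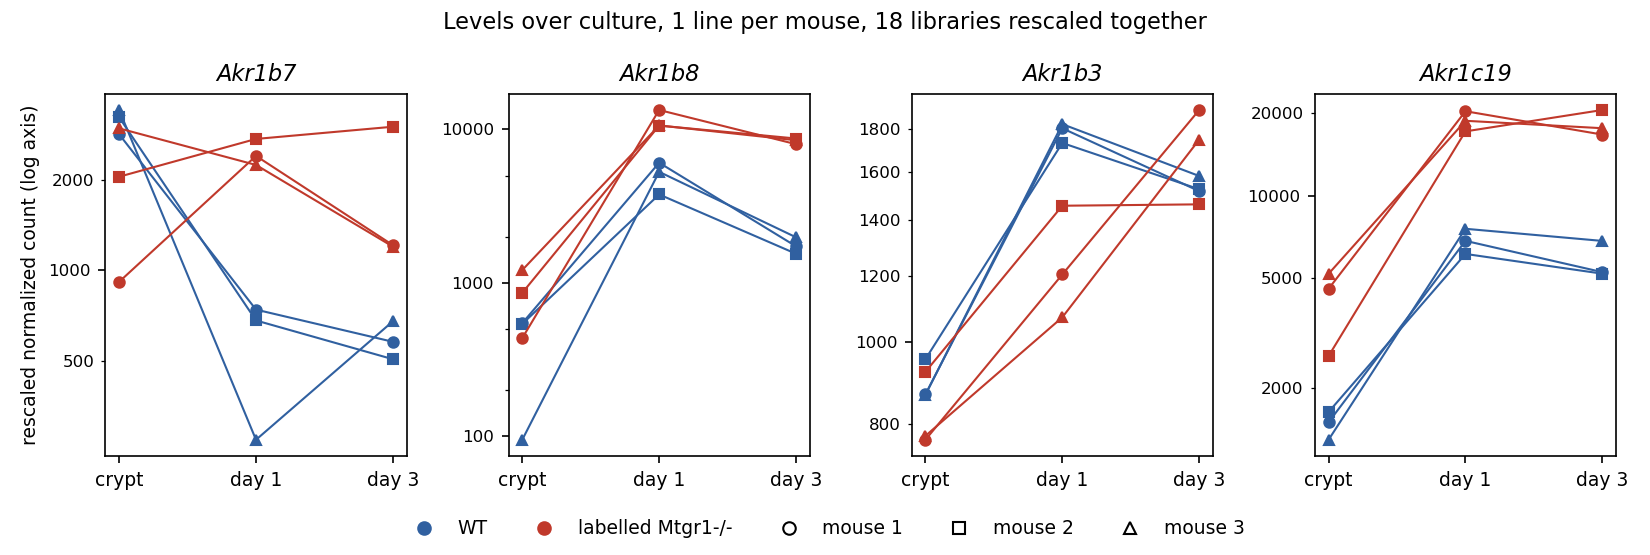
Normalized counts after joint rescaling (log axis) of *Akr1b7*, *Akr1b8*, *Akr1b3* and *Akr1c19* from crypts to day 1 and day 3, with 1 line per mouse, WT in blue and *Mtgr1*-/- in red. *Akr1b8* and *Akr1c19* rise from crypts to day 1 in all 6 mice, whereas *Akr1b7* falls in the 3 WT mice. *Akr1b3* goes down from day 1 to day 3 in the 3 WT mice and up in the 3 *Mtgr1*-/- mice, in mouse 2 by only 0.0055 (log2).

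Levels of different genes were compared per kilobase of transcript, in the 4 members that have 1 coding transcript. In WT crypts the mean normalized count per kilobase was 2682 for *Akr1c13*, 2425 for *Akr1c12*, 2249 for *Akr1b7* and 265 for *Akr1b8*, of which the first 3 overlap between libraries. In *Mtgr1*-/- enteroids at day 3 the order was *Akr1c13* (9863), *Akr1b8* (6618), *Akr1c12* (4282) and *Akr1b7* (1510.5). *Akr1a1* was at 9969 per kilobase or more in WT crypts even if all its reads came from its longest transcript, above the other 7 genes. For *Akr1c19* the annotated coding transcripts run from 747 to 5832 bases, so that its 3344 to 26110 per kilobase in *Mtgr1*-/- enteroids at day 3 could not be placed in this order.

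Across the 18 libraries *Akr1c13* and *Akr1c19* varied most closely together (Pearson's r = 0.96 of log2 rescaled counts), followed by *Akr1b8* with *Akr1c19* (r = 0.93). *Akr1b8* with *Akr1c13* was at 0.89 and *Akr1c12* with *Akr1c13*, which share reads, at 0.88. *Akr1c14* was negatively correlated with 6 of the other 7 members, from -0.70 with *Akr1c12* to -0.35 with *Akr1a1*, and at 0.19 with *Akr1b3*. *Akr1b7* followed *Akr1a1* (r = 0.80) and not its close paralog *Akr1b8* (r = -0.18). These values are descriptions, as the libraries share mice, genotype and time.

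Among 12145 genes, those whose levels over the 18 libraries were most like *Akr1c14* were *Nrarp*, *Ern2*, *Sphkap*, *Rimbp2* and *Fras1*, with r from 0.97 to 0.98. The 3 most like *Akr1c13* were *Cbr1* (r = 0.98), *Ugdh* (r = 0.98) and *Por* (r = 0.98). *Akr1c19* was closest to *Ugt2b35* (r = 0.98), *Dusp9* (r = 0.97) and *Me1* (r = 0.97), and *Akr1b8* to *Paqr8*, *Pparg* and *Mboat1* (r = 0.97 each). *Akr1c12* was closest to *Vps11*, *Pdcl3* and *Msrb1* (r from 0.96 to 0.97), *Akr1b3* to *Rexo2*, *Fam129b* and *Piezo1* (0.96 to 0.98), *Akr1b7* to *Cyp4f14*, *Kbtbd11* and *Smim22* (0.93 to 0.94) and *Akr1a1* to *Ergic3*, *Ubl5* and *Ndufv3* (0.94 each).

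Of 12 other aldo-keto reductase genes, 3 could be tested at day 1, where 2 rose and none fell, and 4 at day 3, where 1 rose and 1 fell (median log2 fold changes 0.52 and 0.23). *Akr1e1*, a reductase of anhydrofructose at the far end of the chromosome 13 cluster, rose at day 1 from 607 ± 45.7 in WT to 991 ± 90.3 in *Mtgr1*-/- (log2 fold change 0.71, adjusted p = 0.00123, limma) and at day 3 from 692 ± 41.2 to 1108 ± 247 (0.66, adjusted p = 0.00599, limma). *Akr7a5*, a reductase of succinic semialdehyde and aflatoxin dialdehyde, rose from 1657 ± 307 to 2361 ± 372 at day 1 (0.52, adjusted p = 0.0266, limma) and was not called at day 3 (0.35, adjusted p = 0.0788, limma). *Akr1b10*, which lies between *Akr1b8* and *Akr1b7*, did not pass on either day (log2 fold changes -0.21 and 0.11, adjusted p of 0.303 and 0.607, limma). In crypts its values of 421, 384 and 365 in WT all lay above those of 233, 217 and 190.1 in *Mtgr1*-/-. *Kcnab3*, a potassium channel subunit of the same fold, was the one counted as lower at day 3, at 17.3 ± 6.79 in WT and 5.23 ± 3.72 in *Mtgr1*-/-. It passed the minimum mean of 10 only through WT, so its difference is given without a test. *Akr1c6*, *Akr1cl* and *Akr1c18*, where listed, had at most 3 reads in any library with recovered reads.

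Enzymes next to these reductases were counted in lists chosen with earlier results known, so the counts support nothing beyond themselves. They are to be read beside the 30.0% of all genes called higher and 28.9% called lower at day 1, and 29.9% and 29.1% at day 3. Of 9 genes tested for the polyol, fructose and glucuronate steps, 7 rose and 1 fell at day 1, and 7 rose at day 3 (median log2 fold changes 1.05 and 0.67). *Ugdh*, which makes UDP-glucuronate, went from 18303 ± 1951 to 45548 ± 7452 at day 1 (log2 fold change 1.31, adjusted p = 0.000425, limma) and was 1.34 higher at day 3 (adjusted p = 7.82e-05, limma). *Dcxr*, a xylulose reductase, rose by 1.35 (log2) at day 1 (adjusted p = 0.000561, limma). *Xylb*, xylulokinase, fell by 0.54 (log2) at day 1 (adjusted p = 0.0266, limma).

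Of 15 other carbonyl and alcohol reductases tested, 9 rose and 1 fell at day 1, and 10 rose at day 3 (medians 0.95 and 0.84). *Dhrs9*, a retinol and steroid dehydrogenase, rose by 2.04 (log2) at day 1 and 1.48 at day 3 (adjusted p of 0.000105 and 0.00162, limma). *Ptgr1*, prostaglandin reductase, rose at day 1 from 4454 ± 848 to 17438 ± 4872 (log2 fold change 1.95, adjusted p = 0.000353, limma), and *Cbr3*, a carbonyl reductase, at day 3 from 1884 ± 113 to 7145 ± 1231 (1.91, adjusted p = 1.88e-05, limma). *Dhrs7* was the one that fell, at day 1 (log2 fold change -0.37, adjusted p = 0.0283, limma). Of 13 aldehyde dehydrogenases, which oxidise the aldehydes that aldo-keto reductases reduce, 9 rose and 1 fell at day 1 and 10 rose and 1 fell at day 3 (medians 1.17 and 1.07). *Aldh1a7* and *Aldh1l1* rose by 1.85 and 1.70 (log2) at day 1 (adjusted p of 0.000332 and 0.0013, limma). *Aldh1a3*, a retinaldehyde dehydrogenase, rose at day 3 from 16.7 ± 3.03 to 203 ± 13.8 (log2 fold change 3.54, adjusted p = 1.26e-05, limma). *Aldh3a1*, counted as higher at day 3 at 1.29 ± 2.24 in WT and 73.8 ± 39.8 in *Mtgr1*-/-, passed the minimum mean only through *Mtgr1*-/- libraries and is given without a test. *Aldh1b1* was the one that fell, with 17437 ± 2523 in WT and 9546 ± 1467 in *Mtgr1*-/- at day 1, and 24276 ± 2186 and 10984 ± 1296 at day 3 (log2 fold changes -0.87 and -1.15, adjusted p of 0.00191 and 0.000146, limma).

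Of 14 steroid reductases and dehydrogenases, 6 rose and 2 fell at day 1 and 7 rose and 1 fell at day 3 (medians 0.40 and 0.54), beside 30.0% higher and 28.9% lower of all genes at day 1. *Hsd17b6* and *Hsd17b11* rose by 1.74 and 1.45 (log2) at day 1, and *Hsd3b3* and *Hsd17b2* by 2.36 and 1.48 at day 3 (adjusted p of 0.00535, 0.00144, 6.73e-05 and 0.000116, limma). *Hsd11b2*, which inactivates glucocorticoids, and *Hsd17b10* were lower at day 1 (log2 fold changes -1.13 and -0.25, adjusted p of 0.0234 and 0.0341, limma). *Srd5a1*, the steroid 5α-reductase one step before the reaction of *Akr1c14*, fell at day 3 from 1007 ± 57.6 to 721 ± 67.8 (log2 fold change -0.48, adjusted p = 0.00395, limma).

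For the NADPH that most of these enzymes use, 12 entries were tested, 2 of them under the symbol *Nnt*. Of these, 6 of 12 rose and 1 fell at day 1, where 30.0% and 28.9% of all genes did, and 7 rose at day 3 (medians 0.50 and 0.48). Malic enzyme *Me1* rose at day 1 from 5288 ± 1245 to 20604 ± 8689, and at day 3 the means were 3771 ± 412 in WT and 16466 ± 230.3 in *Mtgr1*-/- (log2 fold changes 1.90 and 2.13, adjusted p of 0.0012 and 6.17e-06, limma). Isocitrate dehydrogenase *Idh1* rose by 1.73 and 1.28 (log2; adjusted p of 0.000323 and 0.000146, limma), and *Rpia* fell by 0.37 at day 1 (adjusted p = 0.031, limma). Of the 10 regulators and targets of NRF2, the activator of the response to electrophiles, 5 rose at day 1 and 9 at day 3, with none lower (medians 0.40 and 1.12). *Srxn1* and *Gclc* rose by 0.94 and 0.86 (log2) at day 1, and *Gclc*, which limits glutathione synthesis, and *Hmox1* by 1.89 and 1.59 at day 3 (adjusted p of 0.0018, 0.00686, 2.12e-05 and 0.00061, limma). Over all these lists, the genotype difference changed between the days for *Cbr3*, by 1.44 (log2, adjusted p = 0.0144, limma), and for *Aldh1a3*, by 3.31 (adjusted p = 0.032, limma).

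**Figure D5:**
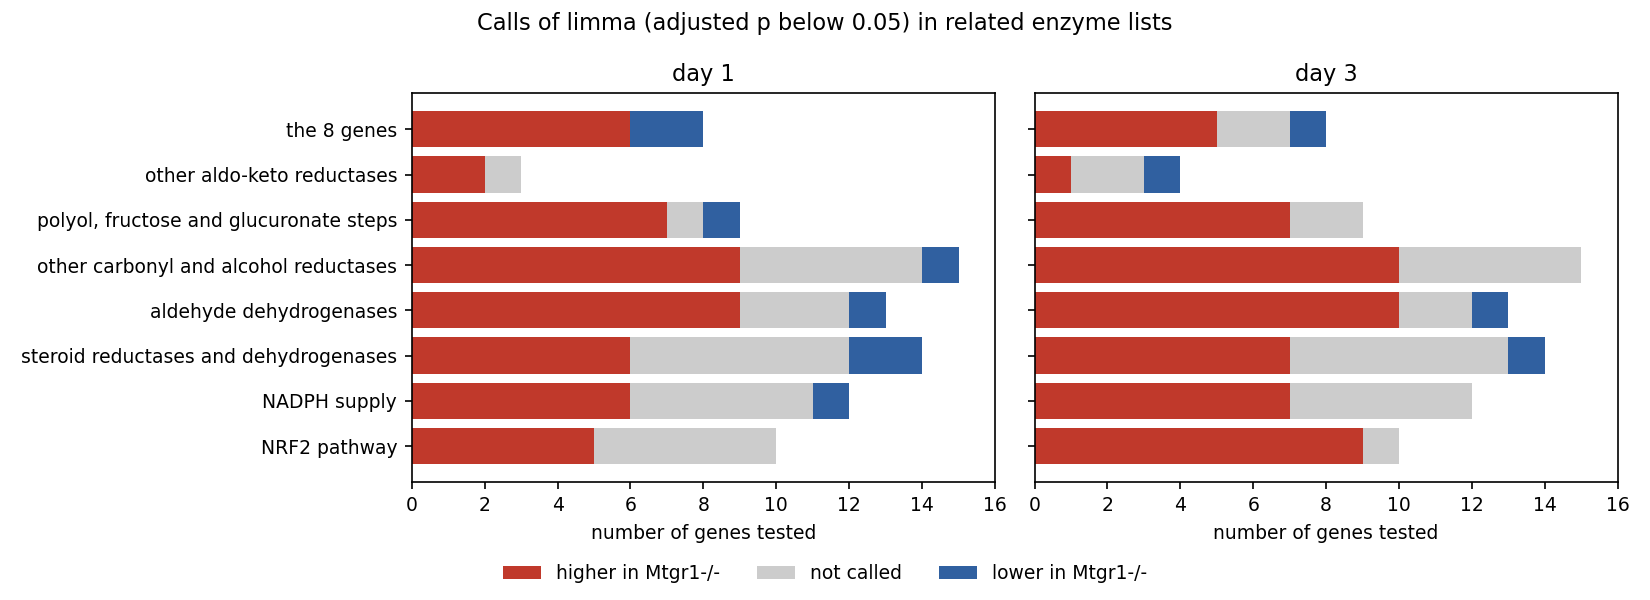
Number of genes tested in each list that were higher (red), lower (blue) or not called (grey) in *Mtgr1*-/- enteroids at day 1 and day 3 (limma, adjusted p below 0.05). In each of the 6 lists of neighbouring enzymes and regulators, and among the 8 genes, calls of higher genes outnumber calls of lower ones on both days. The other aldo-keto reductases have 1 of each at day 3, and the lower one, *Kcnab3*, passed the minimum mean only through WT.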

How the data were processed

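RNA was measured in 18 mouse libraries (stranded mRNA, single reads), 3 per genotype and time point, grouped by their labels. The authors trimmed reads with fastp 0.20.0, quantified them with Salmon 1.3.0 and divided each library's gene counts by 1 size factor (DESeq2 1.26.0), separately for each time point. The deposited signal is this normalized count, on a linear scale, and the authors' columns of mean, fold change, standard error, statistic and p-value were not used. Gene identifiers matched GENCODE M21 in full.

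The scale for tests was log2(normalized count + 1) in genes whose mean was 10 or more, which understates the change of low genes. The tool was limma 3.58.1 (trend, two-sided, Benjamini-Hochberg over all genes, threshold 0.05) in R 4.3.3. The change of the genotype difference from day 1 to day 3 took each mouse as a random effect (correlation within mice -0.0606). With 3 against 3, an exact permutation test of 1 gene cannot go below p = 0.1. The steps between low values gave whole reads (within 0.01 of a read) in 16 libraries. The other 2, WT crypt library 2 and *Mtgr1*-/- day 3 library 2, did not enter the alternatives by edgeR 4.0.16 and DESeq2 1.42.0. The steps were tested on simulated data. A replicate block was set to be used beside results where deviations of every same-numbered pair of libraries correlated over 0.1. Only day 1 met this cut-off (0.116 to 0.231). The crypt pairs were at 0.0764 to 0.346, and those at day 3 at -0.0156 to -0.00226. The main tests had no such block.

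The 8 genes and all lists were chosen with earlier results of these data known. All 8 are named throughout, and of each list the 2 largest rises and 2 largest falls past the threshold on each day, except 1 gene that is not reported here.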

Additional observations from a re-analysis of the deposited data

Results flagged for a closer look

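From day 1 to day 3 *Akr1b3* went down in each of 3 WT mice and up in each of 3 *Mtgr1*-/- mice, in mouse 2 by only 0.0055 (log2). The log2 change of *Mtgr1*-/- minus that of WT was 0.67 on jointly rescaled levels. The test of this difference on the deposited scale gave 0.66 (adjusted p = 0.124, limma), and it passed without *Mtgr1*-/- library 2 of either day (adjusted p of 0.00313 and 0.00573, limma).

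*Akr1c14* was lower at day 3 than in crypts in each of 3 WT mice and higher in each of 3 *Mtgr1*-/- mice, with a log2 difference between these changes of 1.99. This difference was not tested, the *Mtgr1*-/- crypt values rest on 2 to 14 reads a library, and crypt values chose the gene.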

How the results depend on the processing

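Over the alternatives, the day 1 and day 3 calls of *Akr1c12*, *Akr1c13*, *Akr1c19*, *Akr1b7* and *Akr1b8*, and the day 1 call of *Akr1b3*, kept their direction and their side of the threshold. So did the day 3 call of *Akr1c14*, and its day 1 value stayed negative, except where it was summed with *Akr1c19*. That sum gave 1.32 at day 1 and 1.36 at day 3, since *Akr1c19* has most of its reads. Normalized counts over all genes at day 1 added up to 22946792 to 24911854 in WT and 27141338 to 31152183 in *Mtgr1*-/- libraries. Taken as shares of these totals, the day 1 rises would be smaller and the falls larger, an alternative that was not run. Quantile normalization made several rises smaller with the calls kept. At day 1 it gave 0.62 for *Akr1c12*, 0.69 for *Akr1c13*, 1.08 for *Akr1c19* and 0.89 for *Akr1b8*, whereas *Akr1b7* stayed at 2.21. At day 3 it gave 0.44 for *Akr1c12*. *Akr1a1* turned under quantile normalization to values of -0.0902 at day 1 and -0.013 at day 3, and lost its day 1 call in 6 other alternatives. *Akr1b3* was called at day 3 by array weights (adjusted p = 0.0248, limma) and without *Mtgr1*-/- library 2, by limma, edgeR and DESeq2 alike (adjusted p of 0.0249, 0.0174 and 0.0203). *Akr1a1* was called at day 3 by array weights (adjusted p = 0.00643, limma) and without *Mtgr1*-/- library 1 (0.0212). The replicate block, used because same-numbered pairs met the cut-off at day 1, gave 8027 genes against 7413 there. This block changed no call of the 8 genes at day 1 or day 3.

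The change of the genotype difference rests on few libraries. It was called for 61 genes, for 9 to 1136 when 1 library was left out (1136 and 917 without *Mtgr1*-/- library 2 at day 1 and day 3), for 174 with each mouse as a replicate block and for 4 with all 18 libraries. Of the 8 genes, 0 were called higher in the test as stated, 1 with that block and 0 to 2 when 1 library was left out. For *Akr1c13* the change of -0.06 lay between -0.25 and 0.0749 when 1 library was left out, and for *Akr1a1* that of -0.05 lay between -0.15 and 0.033, so that neither has a stable sign. Leaving out 1 crypt library moved the count of members without overlap from 2 to between 2 and 5. The cause of these shifts was not tested. Array weights were not run for crypts.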
